A study of Mus musculus with 6 samples.

Results

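The comparison set 4 mice labelled Ttpa-/-, on either of 2 diets, against 2 mice labelled Ttpa+/+, with 1 mean per genotype. Such a fit favours genes that differ on both diets without requiring it, so calls that were lost against a diet alone are named. It used all 6 libraries and all 21685 cells of the series, summed per mouse, and was repeated within neuron types gated by marker genes. The neuron gates held 13090 cells, of which 20, in a gate for Trpm8 and Foxp2, were too few to test. Mice 654 and 657 were Ttpa-/- on a vitamin E deficient diet, mice 670 and 671 were Ttpa-/- on a vitamin E supplemented diet, and mice 698 and 699 were Ttpa+/+ on a basal diet. The Ttpa-/- mice were 6 months old and the wild type mice 5 months, and each group held 1 female and 1 male. Age and the basal diet therefore went with genotype and cannot be told apart from it, and strain background and the deleted part of Ttpa are not given in the labels. Cells were dorsal root ganglion neurons by their label, profiled as 3' droplet libraries, in which each RNA molecule is counted once by its unique molecular identifier (UMI).

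Ttpa encodes the alpha-tocopherol transfer protein, a liver protein that returns vitamin E to the circulation, and its loss causes vitamin E deficiency with a sensory ataxia. Dorsal root ganglia hold the cell bodies of sensory neurons: large neurofilament-rich neurons for touch and position (NF), peptidergic nociceptors that release substance P and CGRP (PEP), non-peptidergic nociceptors and itch neurons (NP1 to NP3), and low-threshold C fibres marked by tyrosine hydroxylase (TH). Vitamin E is a fat-soluble antioxidant of membranes, and sensory neurons with long axons are among the cells that its lack harms.

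Libraries held 12538785 to 19383933 UMIs in 2858 to 4098 cells, with medians of 2499.5 to 4959 UMIs per cell, and the 2 shallowest libraries, mice 654 and 670, were both labelled Ttpa-/-. Barcodes found in more than 1 library numbered 261. Ttpa itself was read at 4, 5, 1 and 4 UMIs in mice 654, 657, 670 and 671 and at 0 in mice 698 and 699, where 0 counts allow up to 0.171 and 0.155 CPM (UMIs scaled to a common library size). The few Ttpa UMIs thus lay in the libraries labelled Ttpa-/- and none in those labelled Ttpa+/+. Since 3' reads may lie outside the deleted part, they do not check the genotype, and every direction below rests on the labels. Pan-neuronal markers summed to between 12484 and 13599 CPM in all 6 libraries. Macrophage, endothelial and fibroblast markers summed to at most 69.9 CPM per set in each library, and mural markers to 137 to 199 CPM. Satellite glia markers summed to 564, 463, 728 and 936 CPM in mice 654, 657, 670 and 671 and 591 and 451 CPM in mice 698 and 699, and satellite-glia-like cells made up 3.62, 3.06, 6.90 and 10.0% of gated cells against 3.89 and 3.17%, highest in the 2 supplemented mice. The part of glial RNA in the results was not tested. The sums for myelinating Schwann cell markers were 565 to 743 CPM in the libraries labelled Ttpa-/- and 550 and 631 CPM in wild type.

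Over all cells, no gene passed edgeR's quasi-likelihood test at a Benjamini-Hochberg adjusted p of 0.05 (0 of 13430 genes, 0%), with 644 genes (4.8%) at an unadjusted p under 0.05. DESeq2 called 17 genes, 16 of them higher in the libraries labelled Ttpa-/-, and limma-voom called 0. Without the low-count filter edgeR called 47. All 4 libraries labelled Ttpa-/- lay above both wild type libraries for 723 genes (5.38%) and below both for 750 (5.58%). Leaving out mouse 654 or mouse 657 brought 1 call each, and leaving out mouse 670 brought 2.

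Wdfy1, which encodes an endosomal protein with a FYVE domain that binds phosphatidylinositol 3-phosphate, had the smallest p over all cells and was the gene called in the most neuron types. It lies on chromosome 1 (79702262 to 79776143, minus strand, GRCm38). Over all cells its level was 35.9, 66.2, 36.9 and 46.4 CPM in mice 654, 657, 670 and 671 and 15.7 and 14.4 CPM in mice 698 and 699. The lowest library labelled Ttpa-/- stood at more than the level of both wild type libraries together. The log2 fold change was 1.63 ± 0.23 (SE, n = 4 and 2), with an adjusted p of 0.125 by edgeR's quasi-likelihood test, and it was 4.83e-11 by DESeq2. Without mouse 654, 657 or 670 the edgeR adjusted p was 0.0197, 0.0198 and 0.0199.

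**Figure D1:**
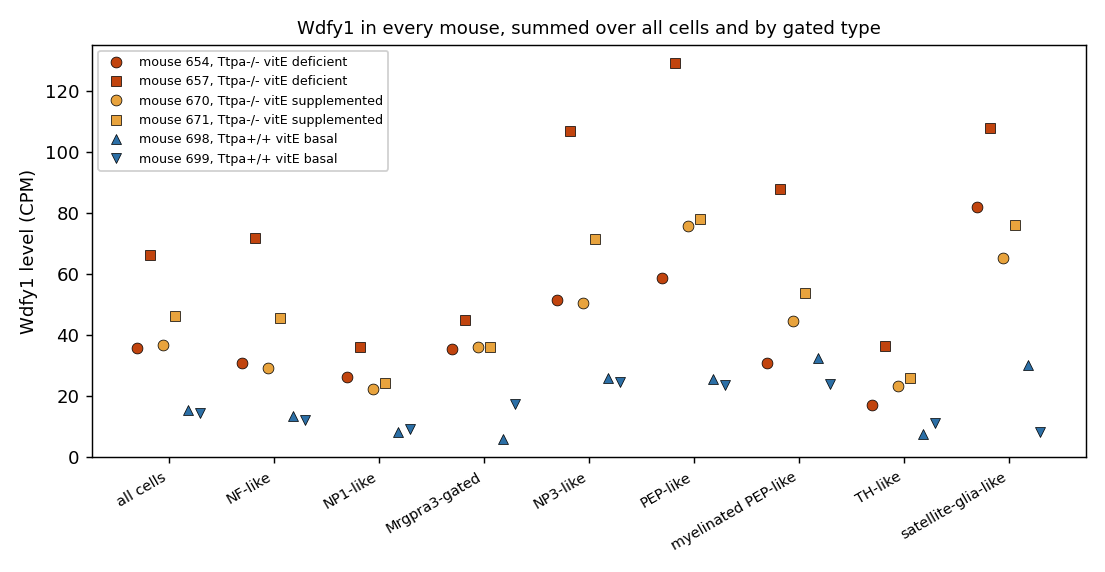
Wdfy1 level in CPM (vertical axis) for each mouse, summed over all cells and over each gated type (horizontal axis). Each point is 1 mouse, coloured by genotype and diet; the 2 wild type points lie below all 4 points labelled Ttpa-/- in every set shown except the myelinated PEP-like cells, where mouse 654 (30.8 CPM) lies below mouse 698 (32.5 CPM).

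Within types, Wdfy1 rose in 5 of the 7 neuron types by edgeR's quasi-likelihood test: PEP-like, NF-like, NP1-like, NP3-like and Mrgpra3-gated. PEP-like cells held 58.9, 129, 75.9 and 78.0 CPM in the libraries labelled Ttpa-/- (mice 654, 657, 670 and 671) and 25.8 and 23.7 CPM in wild type (mice 698 and 699). This was the clearest of the 5, with a log2 fold change of 1.82 ± 0.23 and an adjusted p of 4.74e-06. It kept its call under all 11 other settings tried and without each of the 6 mice. NF-like cells held 30.9, 71.8, 29.3 and 45.6 CPM against 13.4 and 12.2 CPM (log2 fold change 1.86 ± 0.27, adjusted p = 0.00302). In NP1-like cells the log2 fold change was 1.64 ± 0.26 (adjusted p = 0.00811), in NP3-like cells 1.45 ± 0.27 (0.0186) and in Mrgpra3-gated cells 1.78 ± 0.39 (0.0349). Mouse 657, on the deficient diet, had the highest Wdfy1 level in all of these types. Leaving out mouse 698 lost the call in 4 of the 5 types, all but PEP-like, and DESeq2 made the call in PEP-like and NP1-like cells but not in the other 3. Without mouse 699 the call was lost in NF-like, NP1-like and NP3-like cells, without mouse 657 or 671 in NP3-like and Mrgpra3-gated cells, and with limma-voom in NP1-like, NP3-like and Mrgpra3-gated cells. Of the 11 other settings, Wdfy1 kept its call in 10 in NP1-like, 9 in NF-like, 5 in NP3-like and 4 in Mrgpra3-gated cells. By edgeR's quasi-likelihood test, NF-like cells lost it against the supplemented diet alone (1.60, adjusted p = 0.0776). NP3-like cells lost it against the deficient (1.57, 0.0946) and the supplemented diet alone (1.28, 0.737). Mrgpra3-gated cells also lost it against the deficient (1.87, 0.0583) and the supplemented diet alone (1.67, 0.226).

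The levels in the other 2 neuron types and in glia did not pass. TH-like cells held 17.3, 36.5, 23.5 and 26.0 CPM of Wdfy1 against 7.73 and 11.1 CPM, again without overlap (log2 fold change 1.52 ± 0.29, adjusted p = 0.543). In myelinated PEP-like cells the groups overlapped (1.09 ± 0.37, adjusted p close to 1). Satellite-glia-like cells held 81.9, 108, 65.2 and 76.1 CPM against 30.4 and 8.17 CPM (2.02 ± 0.43, adjusted p = 0.121). No type's Wdfy1 difference passed the test against the mean of the other types, where the departures ran from -0.63 ± 0.36 in myelinated PEP-like to 0.31 ± 0.21 in NF-like cells.

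The number of genes called within a neuron type was small. Over 7 types and 57511 gene tests, edgeR called 23 differences in 16 genes, 20 higher (0.0348% of tests) and 3 lower (0.00522%) in the libraries labelled Ttpa-/-. All 23 had the 4 libraries labelled Ttpa-/- on one side of both wild type libraries. Of all tests, 5.89% had the 4 above and 5.14% had the 4 below. The calls were made on these same values, so their being on one side adds no support to them. The shares of tested genes called were 0.0853% in PEP-like (8 genes), 0.0961% in Mrgpra3-gated (6), 0.0409% in NP3-like (3), 0.0284% in NF-like (3), 0.0217% in NP1-like (2), 0.0182% in myelinated PEP-like (1) and 0% in TH-like cells (0 genes, with 262 or 2.83% at an unadjusted p under 0.05, 0 by DESeq2 or limma-voom, and 22 higher and 1 lower without the low-count filter). Leaving out mouse 657 gave 61 calls, leaving out mouse 699 gave 42, and without the low-count filter there were 137. Against the deficient diet alone 15 differences were called, and against the supplemented diet alone 26. Type names rest on markers: 7 of 7 check markers passed in NF-like cells, 6 of 7 in NP1-like, 5 of 7 in PEP-like, 4 of 4 in NP3-like, 5 of 5 in TH-like and 3 of 4 in myelinated PEP-like cells. In satellite-glia-like cells 4 of 6 passed, and the glial genes Sox10 (in 3.24% of these cells) and Kcnj10 (2.25%) did not. None of 3 passed in the cells gated by Mrgpra3, an itch receptor, which are therefore called by that gene.

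**Figure D2:**
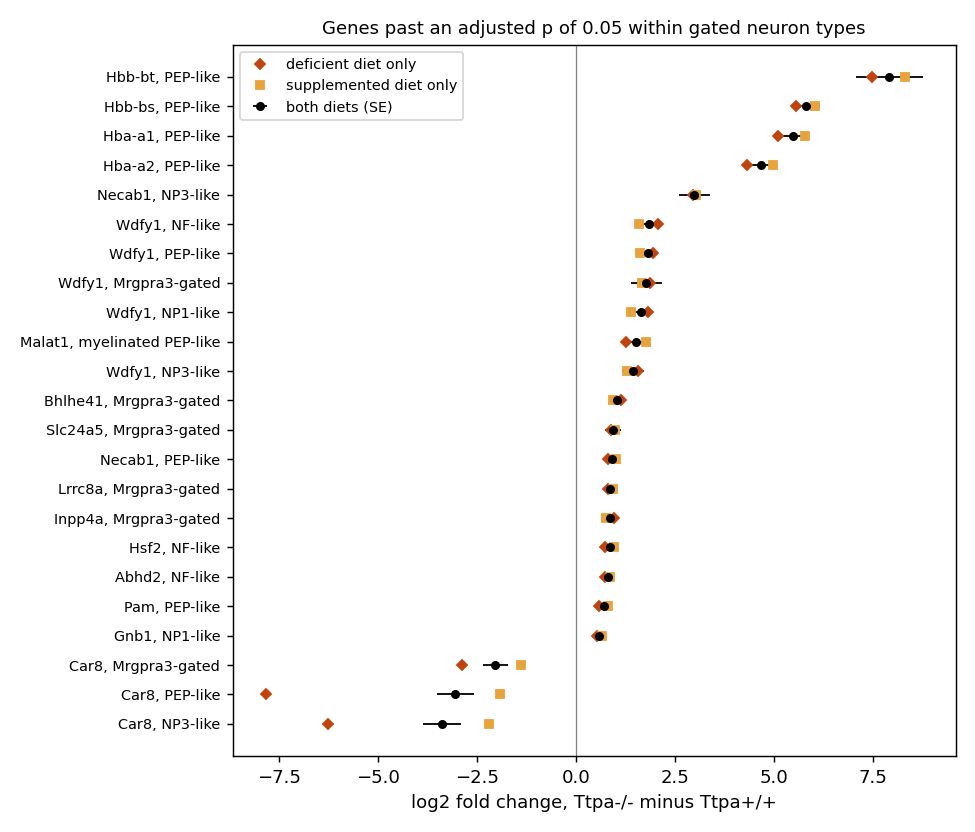
Log2 fold change between libraries labelled Ttpa-/- and wild type (horizontal axis) for the 23 differences called within neuron types (rows). Black points with bars are both diets with SE, diamonds the deficient diet alone and squares the supplemented diet alone, each against the same 2 wild type mice; all 3 have the same sign in every row, and the leftmost diamonds, for Car8, rest on 0 to 2 UMIs per library and depend on the fit's prior count.

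Car8 was the only gene called lower. It encodes carbonic anhydrase-related protein 8, which binds the IP3 receptor and lowers its affinity for IP3, and it lies on chromosome 4 (8143362 to 8239041, minus strand). PEP-like cells held 0.842, 0, 54.5 and 2.19 CPM of Car8 in mice 654, 657, 670 and 671 and 117 and 74.4 CPM in mice 698 and 699. In UMIs these were 1, 0, 56 and 3 against 258 and 132. Mice 654, 657 and 671 were at or near 0, and mouse 670, on the supplemented diet, lay between them and wild type. The log2 fold change was -3.04 ± 0.47 (n = 4 and 2), with an adjusted p of 3.67e-04 by edgeR's quasi-likelihood test.

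The same order held in NP3-like cells, with 0, 2.67, 43.6 and 0 CPM of Car8 against 80.7 and 93.7 CPM (log2 fold change -3.38 ± 0.49, adjusted p = 2.00e-04). Mrgpra3-gated cells held 8.21, 21.3, 96.9 and 15.2 CPM against 138 and 111 CPM (-2.03 ± 0.31, adjusted p = 1.58e-04). In this type mouse 670 came closest to wild type. Car8 fell in all 3 types without each of the 6 mice in turn. Its call was lost in all 3 with DESeq2 (PEP-like -2.74, adjusted p close to 1) and against the supplemented diet alone (PEP-like -1.91, adjusted p = 0.0744), and in Mrgpra3-gated cells also with sums thinned to equal depth. Within the supplemented diet, mouse 670 kept Car8 and mouse 671 did not, so the 2 mice on that diet did not have like levels.

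In the remaining neuron types Car8 was scarce. NF-like cells held 0, 0, 2 and 0 UMIs in the libraries labelled Ttpa-/- and 5 and 6 in wild type. NP1-like, TH-like and myelinated PEP-like cells held at most 2 in any library. Over all cells the level was 1.22, 1.67, 17.3 and 1.36 CPM against 37.3 and 23.7 CPM, which did not pass (-2.59 ± 0.69, adjusted p = 0.807). Without mouse 670 the same fit gave -4.39 and an adjusted p of 9.44e-07. In satellite-glia-like cells the levels were 0, 4.50, 38.4 and 9.14 CPM against 45.5 and 57.2 CPM (adjusted p = 0.941).

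**Figure D3:**
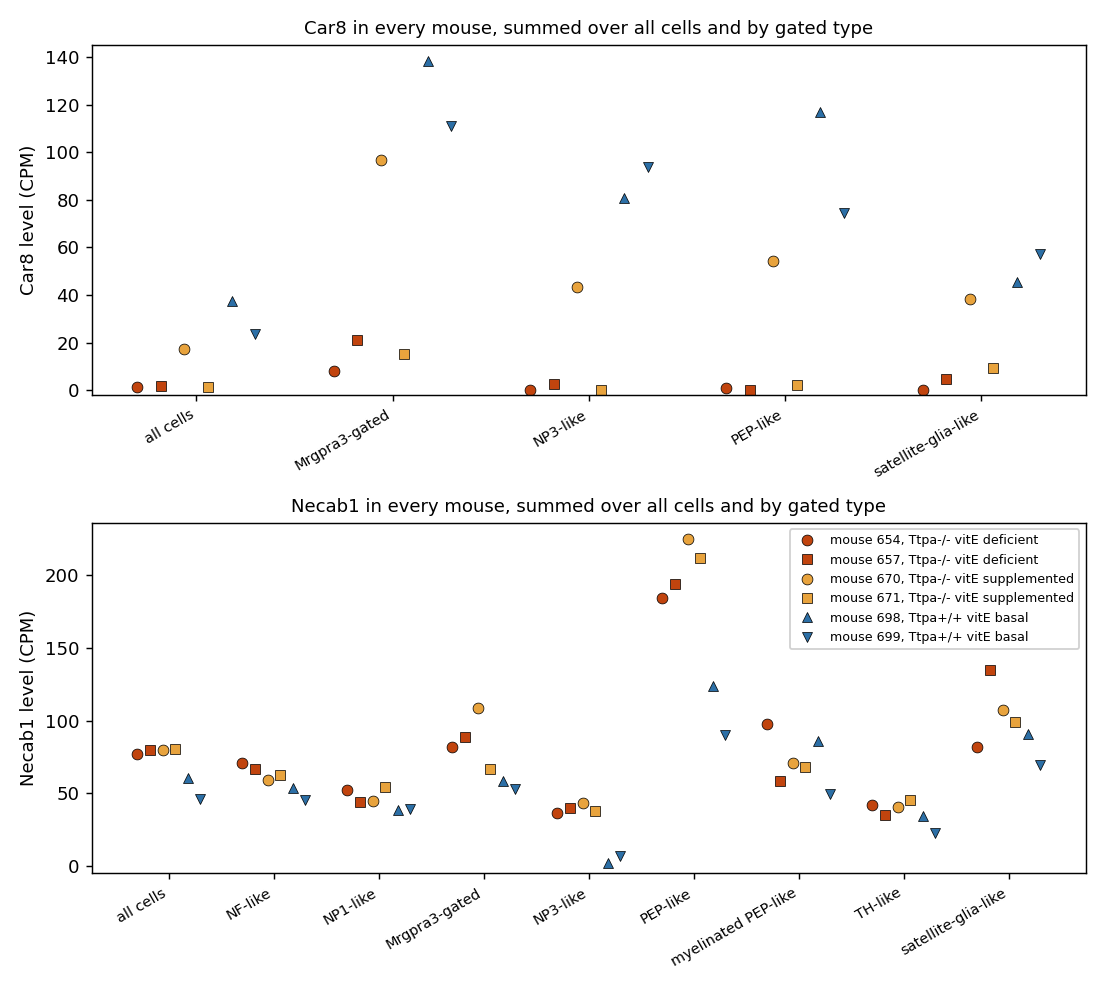
Car8 (top) and Necab1 (bottom) levels in CPM for each mouse, summed over all cells and over each gated type in which the gene passed the low-count filter. Each point is 1 mouse; for Car8, mouse 670 lies between the other libraries labelled Ttpa-/- and wild type, and for Necab1 the 2 wild type mice in NP3-like cells are at 2.27 and 6.91 CPM while the other 4 are at 36.5 to 43.6 CPM.

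Necab1, an EF-hand protein that binds calcium in neurons, rose in 2 types. It lies on chromosome 4 (14952245 to 15149794, minus strand). NP3-like cells, the somatostatin and natriuretic peptide B itch neurons, held 36.5, 40.1, 43.6 and 37.7 CPM in mice 654, 657, 670 and 671 and 2.27 and 6.91 CPM in mice 698 and 699. The wild type values are 2 and 7 UMIs, against 46, 30, 25 and 29. The 4 libraries labelled Ttpa-/- lay close together, and the diets overlapped. The log2 fold change was 3.00 ± 0.38, with an adjusted p of 2.82e-05 by edgeR's quasi-likelihood test, and it held without each of the 6 mice and was lost only with limma-voom (adjusted p = 0.0796).

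PEP-like cells had more Necab1 in both genotypes: 184, 194, 225 and 212 CPM against 124 and 90.1 CPM. The groups did not overlap, and the log2 fold change of 0.92 ± 0.14 (adjusted p = 2.49e-04) passed under all 11 other settings and without each mouse. Other types had the same sign and did not pass, with log2 fold changes of 0.40 ± 0.13 in NF-like, 0.33 ± 0.15 in NP1-like, 0.61 ± 0.23 in Mrgpra3-gated, 0.47 ± 0.20 in TH-like and 0.14 ± 0.28 in myelinated PEP-like cells. In the test of type by genotype over 77462 tests, Necab1 in NP3-like cells was the 1 difference called (0.00129%). There the genotype difference exceeded the mean of the other types by 2.53 ± 0.39 on the log2 scale (adjusted p = 5.06e-04). Without mouse 698 it was 1.82 with an adjusted p of 0.491, and the number of calls then was 8.

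Car8 and Necab1 both lie on the chromosome of Ttpa (20007938 to 20030785), Car8 at 11.8 Mb and Necab1 at 4.86 Mb from it. B4galt1, a Golgi galactosyltransferase, and the predicted gene Gm10600 were among the 20 genes with the smallest p over all cells and lie on the same chromosome at 20.8 and 22.2 Mb. Within 25 Mb of Ttpa 150 genes were tested, of which 13 (8.67%) had an unadjusted p under 0.05, against 4.75% of 12855 genes elsewhere. The share with all 4 libraries labelled Ttpa-/- on one side was 10.7% in that window and 11% elsewhere. This window was chosen after the positions of the called genes were seen, and whether position bears on these differences was not tested.

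PEP-like cells also had 4 globin genes called, and these rested on 8 cells. Hbb-bs and Hbb-bt encode beta globin and Hba-a1 and Hba-a2 alpha globin, the chains of haemoglobin in red blood cells. The last 120 coding bases of each pair of copies are shown here because 3' reads must tell them apart by these and the bases after them; capitals mark the base that differs within a pair (GENCODE vM21, 5′ to 3′, ending at the stop codon).
Hba-a1: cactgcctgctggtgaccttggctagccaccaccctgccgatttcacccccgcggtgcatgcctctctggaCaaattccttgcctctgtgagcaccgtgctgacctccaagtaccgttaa
Hba-a2: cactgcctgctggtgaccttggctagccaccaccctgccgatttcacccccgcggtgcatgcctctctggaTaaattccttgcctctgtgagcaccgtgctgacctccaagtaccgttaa
Hbb-bs: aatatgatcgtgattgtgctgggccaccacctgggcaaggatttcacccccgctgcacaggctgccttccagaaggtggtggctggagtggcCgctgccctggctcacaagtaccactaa
Hbb-bt: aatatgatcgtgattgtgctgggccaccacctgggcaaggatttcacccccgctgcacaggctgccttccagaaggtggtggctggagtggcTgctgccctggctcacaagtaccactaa
Each pair differed at 1 base over the whole coding sequence (429 bases for alpha and 444 for beta globin). After the stop codon Hba-a1 has 74 annotated bases and Hba-a2 has 90. All 74 aligned to the same base, so the alpha copies differed there only by gaps. For beta globin 94 of 134 aligned positions were the same. Reads that end in the coding part cannot be assigned to a copy except at these bases, so the split of UMIs between copies may be uncertain, and sums over the 4 genes are given below as well.

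Hbb-bs stood at 72.4, 100, 97.3 and 144 CPM in the PEP-like cells of mice 654, 657, 670 and 671 and at 1.81 and 1.69 CPM in mice 698 and 699 (log2 fold change 5.83 ± 0.35, adjusted p = 5.43e-14 by edgeR's quasi-likelihood test). Hba-a1 gave 5.48 ± 0.39 and Hba-a2 4.68 ± 0.39. Hbb-bt had 103 UMIs against 0, at least 26.4-fold higher against a floor of 3 counts over the 2 wild type libraries. All 4 kept their call under those 11 settings and without each mouse. Yet most UMIs sat in few cells: 68 of 86, 171 of 174, 90 of 100 and 134 of 197 Hbb-bs UMIs came from 1 cell in mice 654, 657, 670 and 671. Cells with 10 or more globin UMIs numbered 2, 1, 2 and 3 in the libraries labelled Ttpa-/- and 0 and 0 in wild type. With these left out, an alternative chosen after seeing the data, the summed globin UMIs were 16, 12, 6 and 9 against 13 and 6. These counts overlapped but were not scaled to depth. The whole PEP-like sums held 1164921, 1773611, 1002181 and 1417543 UMIs in mice 654, 657, 670 and 671. They held 2252715 and 1863943 UMIs in mice 698 and 699, the 2 deepest. Overlap in counts is therefore not overlap in level, and the difference that remained was not tested. The number of genes called in PEP-like cells fell to 3.

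**Figure D4:**
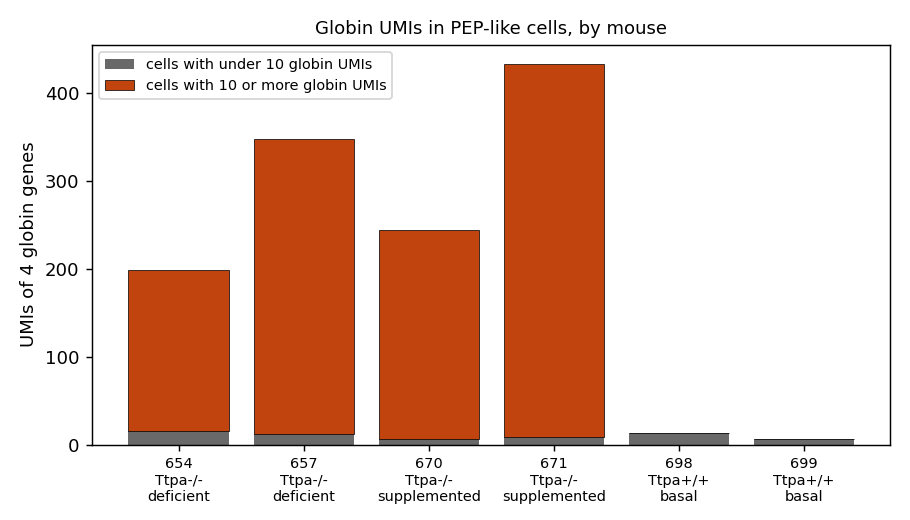
UMIs of the 4 globin genes in PEP-like cells, not scaled to depth (vertical axis), for each mouse (horizontal axis). Orange-red parts are cells with 10 or more globin UMIs and grey parts all other cells; the grey parts run from 6 to 16 UMIs in all 6 mice.

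Over all cells, cells with 10 or more globin UMIs numbered 15, 4, 21 and 6 in the libraries labelled Ttpa-/- and 2 and 3 in wild type, and they fell in NP1-like and NF-like gates too (10 cells each). Alas2, an erythroid enzyme of haem synthesis, had 4, 2, 4 and 0 UMIs against 1 and 1. Hbb-bt over all cells was 8.81, 4.29, 15.3 and 2.13 CPM against 0.0579 and 0.887 CPM (adjusted p = 0.504). Erythroid markers over all cells summed to 111, 54.8, 215 and 37.3 CPM against 10.6 and 36.2 CPM, nearly all of it globin.

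Some calls came from single types. In PEP-like cells Pam, which amidates neuropeptides such as substance P and CGRP, held 976, 812, 865 and 1231 CPM against 554.5 and 630 CPM (log2 fold change 0.71 ± 0.15, adjusted p = 0.0392). Every library labelled Ttpa-/- lay above both wild type libraries. The adjusted p was 0.0613 without the cells rich in globin, and the call was lost without mouse 654, 671 or 698, against either diet alone and with 1 mean per diet group. In myelinated PEP-like cells Malat1, a nuclear long non-coding RNA, held 2781, 1932, 1962 and 4672 CPM against 854 and 1097 CPM (1.54 ± 0.24, adjusted p = 7.49e-04). Mouse 671 had the highest level, and the call held without each of the 6 mice but not with DESeq2, a stricter gate or the deficient diet alone.

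Mrgpra3-gated cells had 4 more genes called. Bhlhe41, a transcriptional repressor of the circadian clock, held 372, 348, 188 and 413 CPM against 154 and 171 CPM (1.04 ± 0.19, adjusted p = 0.00395), with mouse 670 close above wild type. Inpp4a, a phosphoinositide phosphatase, held 279, 218, 191 and 230 CPM against 122 and 129 CPM (0.87 ± 0.17, adjusted p = 0.0118). Lrrc8a, the essential subunit of the volume-regulated anion channel, rose by 0.88 ± 0.18 (0.0118), and Slc24a5, a cation exchanger, by 0.94 ± 0.20 (0.0313). All 4 genes lost their call with DESeq2, with thinned sums, against the supplemented diet alone and without mouse 671, and the sums came from 75 to 87 cells per mouse. Lrrc8a and Slc24a5 also lost it under the stricter gate and against the deficient diet alone. Without mouse 698 it was lost for Inpp4a, Lrrc8a and Slc24a5, without mouse 699 for Lrrc8a and Slc24a5, without mouse 654 for Inpp4a and without mouse 657 for Slc24a5.

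In NF-like cells Abhd2, a lipid hydrolase, held 645, 484, 548 and 687 CPM against 367 and 311 CPM (0.80 ± 0.14, adjusted p = 0.0194). Hsf2, a heat shock transcription factor, held 70.7, 53.9, 58.1 and 81.2 CPM against 37.4 and 35.6 CPM (0.86 ± 0.16, adjusted p = 0.0401). In NP1-like cells Gnb1, a G protein beta subunit, held 1976, 1724, 1930 and 2100 CPM against 1292 and 1258 CPM (0.60 ± 0.10, adjusted p = 0.00811). None of the 3 had overlapping groups, but Abhd2 and Hsf2 lost their call without mouse 654, 671, 698 or 699, and Gnb1 without mouse 654, 670, 698 or 699. Abhd2 and Hsf2 also lost it with 1 mean per diet group and against either diet alone, Hsf2 with DESeq2, limma-voom and thinned sums, and Gnb1 against the deficient diet alone. No gene passed in TH-like cells, where Tacc1, a centrosomal and microtubule protein, and Abhd2 followed Wdfy1 with log2 fold changes of 0.88 ± 0.18 and 0.90 ± 0.21 (adjusted p = 0.616 and close to 1). Without the low-count filter the adjusted p was 1.56e-05 for Wdfy1, 1.34e-04 for Abhd2 and 0.00162 for Tacc1 in these cells. In satellite-glia-like cells, where 0 of 4821 genes passed (248, or 5.14%, at an unadjusted p under 0.05; other tools were not run), Cdkn1a, a cell cycle inhibitor, stood at 181, 122, 131 and 102 CPM against 49.3 and 57.2 CPM (adjusted p = 0.275). Phactr2, which binds actin and protein phosphatase 1, stood at 146, 135, 108 and 157 CPM against 247 and 249 CPM (adjusted p = 0.275).

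Among the 20 genes with the smallest p over all cells, none of which passed, 17 were higher and 3 lower, all without overlap. Rpgrip1, a ciliary protein of photoreceptors, stood at 46.9, 43.3, 41.1 and 45.8 CPM in mice 654, 657, 670 and 671 and 25.05 and 28.4 CPM in mice 698 and 699 (0.73 ± 0.11, adjusted p = 0.125 by edgeR's quasi-likelihood test). Slc39a1, a zinc importer, stood at 19.5, 17.0, 18.9 and 22.2 CPM against 11.2 and 7.72 CPM (1.04 ± 0.17, adjusted p = 0.125). Gm10600 had a log2 fold change of 1.24 ± 0.19 (adjusted p = 0.125) and Sema4b, a semaphorin, 0.79 ± 0.13 (0.174). DESeq2 called all 4 of these. The calcium-binding protein S100a11 was at 74.0, 100, 88.7 and 81.0 CPM against 122 and 128 CPM (-0.54 ± 0.12, adjusted p = 0.504), and it was the 1 gene DESeq2 called lower. S100a11 ranked 9 by fold of PEP-like cells over the rest, and the share of that type was lower in all 4 libraries labelled Ttpa-/-. The part of the type mix was not tested. The remaining 14 genes, from D17H6S53E (0.78, adjusted p = 0.251) to 1700023F06Rik (-0.52, adjusted p = 0.527), included Pam, Hsf2, Inpp4a and Necab1, each called in a neuron type.

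Mrgprd, the receptor that defines NP1 neurons, was among these 20: 48.3, 27.6, 48.5 and 32.8 CPM against 19.5 and 18.1 CPM (1.06 ± 0.21, adjusted p = 0.496). Of 6 tested NP1 markers outside the gate 3 had all 4 libraries labelled Ttpa-/- above wild type, as did 5.38% of all genes tested. Since Mrgprd and Lpar3 form the NP1-like gate, the share of NP1-like cells is not independent of the Mrgprd level. It was 19.5, 15.2, 17.6 and 13.3% of gated cells in mice 654, 657, 670 and 671 and 10.1 and 8.18% in mice 698 and 699. The groups did not overlap (16.4% ± 2.7 against 9.12% ± 1.34, SD, n = 4 and 2). By an exact permutation test over 15 arrangements, two-sided, p was 0.133, the smallest this design allows, or 0.467 adjusted over 7 types. The share of PEP-like cells was below wild type in all 4, at 21.3, 24.5, 21.0 and 21.9% against 32.3 and 25% (exact p = 0.133, adjusted 0.467). The other 5 types overlapped. More cells of a type and more RNA per cell cannot be told apart in the sums over all cells, and 4670 cells that scored in 2 gates were left out of the shares.

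**Figure D5:**
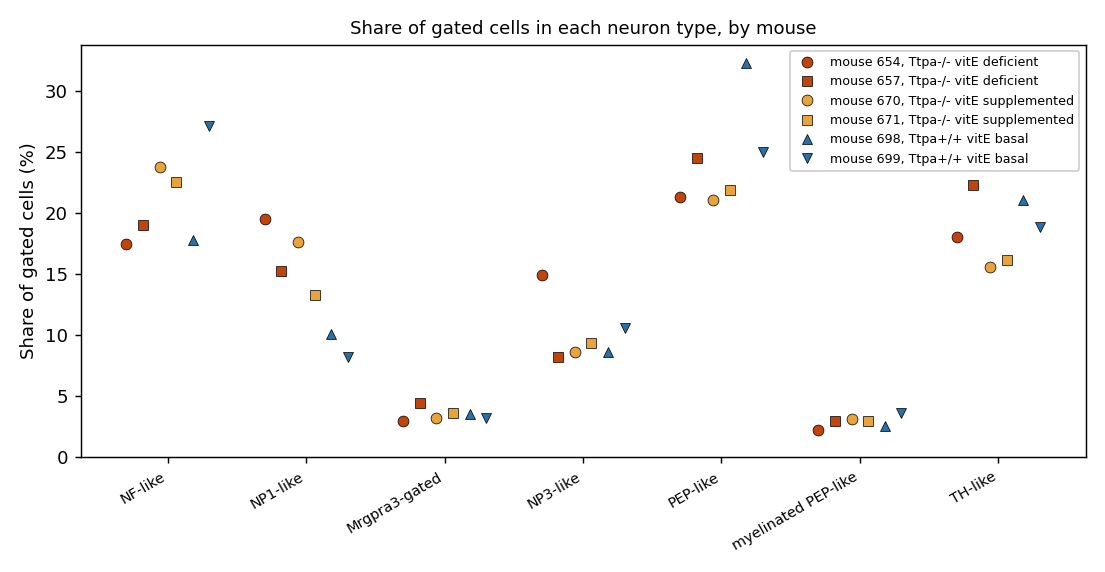
Share of gated cells (vertical axis, %) in each neuron type (horizontal axis) for each mouse. Each point is 1 mouse; NP1-like shares of the 4 mice labelled Ttpa-/- (13.3 to 19.5%) lie above wild type (8.18 and 10.1%), PEP-like shares lie below it, and the other types overlap.

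Lists of genes chosen around vitamin E, oxidative stress and sensory neurons had no member called over all cells by edgeR's quasi-likelihood test, where the median of all 13430 genes was -0.01 on the log2 scale. DESeq2 called 3 list members over all cells, Wdfy1, Pam and Necab1, and without the low-count filter edgeR called these and Car8, Bhlhe41, Sdc1 and Hbb-bt among the members named here. Of 13 tested genes of vitamin E and lipid transport, 8 were higher and 5 lower (median 0.06). In the transport list Cd36, a fatty acid receptor, was below 1 CPM in all 6 libraries and overlapped, and Lpl, lipoprotein lipase, was -0.50 ± 0.20. Of 32 antioxidant and NRF2 target genes 16 were higher and 16 lower (median 0.00). Hmox1, which degrades haem, stood at 30.5, 24.4, 26.9 and 29.4 CPM against 21.5 and 17.6 CPM (0.51 ± 0.13, adjusted p = 0.757). Gstm1, a glutathione transferase, was below wild type in all 4 libraries (-0.34 ± 0.12, adjusted p = 0.998). Genes of lipid peroxidation and ferroptosis split 8 and 8 (median 0.02), with Aifm2, a suppressor of ferroptosis, at 0.65 ± 0.36 and Elovl5, a fatty acid elongase, at -0.14 ± 0.12.

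Genes of cholesterol synthesis and SREBP targets were higher for 20 of 25 (median 0.13). Over all genes tested 5.38% had all 4 libraries above wild type, and of these 25 genes 2 did. They were Insig1, which retains SREBP in the endoplasmic reticulum (86.3, 89.3, 90.2 and 104 against 77.4 and 63.6 CPM; 0.39 ± 0.12, adjusted p = 0.894), and Dhcr7. Cyp51, of the same list, was at -0.06 ± 0.11. Inflammation and interferon genes were higher for 20 of 24 (median 0.20). The chemokine Cxcl1 was at 0.95 ± 0.35 and Ccl2 at -0.30 ± 0.17, both with overlapping groups. All 13 mitochondrially encoded genes were lower (median -0.39), of which mt-Co2, mt-Co3 and mt-Nd5 had no overlap. Over all genes tested, 5.58% lay below wild type in all 4 libraries. mt-Nd5, a subunit of complex I, stood at 90.4, 95.7, 91.6 and 95.4 CPM against 140 and 104 CPM (-0.39 ± 0.12, adjusted p = 0.894). The medians of this list were below 0 in each of the 7 neuron types, from -0.55 in Mrgpra3-gated to -0.26 in PEP-like cells. The median mitochondrial share per cell was 2.66, 4.11, 2.61 and 3.55% against 4.80 and 3.97%. That share counts the UMIs of mitochondrially encoded genes, so it is not a separate measure. The cause of these values was not tested.

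Of 23 RORA targets and clock genes 10 were higher and 13 lower (median -0.03), and 25 genes of IP3 receptors and calcium handling split 6 and 19 (median -0.11). Within neuron types, the calls of these lists were those of Car8, Bhlhe41 and Necab1. The FYVE and endosome list had 8 higher and 10 lower (median -0.01), with Wdfy1 its 1 gene called in types and Eea1, an early endosome tether, at -0.14 ± 0.11. Neuropeptide genes split 9 and 11 (median -0.08). Galanin (Gal), which also stands on the list of axon injury, was at 108, 99.5, 95.8 and 89.9 CPM against 135 and 122 CPM (-0.38 ± 0.10, adjusted p = 0.762). Gal was found in 54.2% of PEP-like and 9.62% of other cells, and the share of PEP-like cells was lower in all 4 libraries. Within PEP-like cells 0 of 15 tested neuropeptide genes lay below wild type in all 4, with the gating genes Tac1 and Adcyap1 left out. Of all 9381 genes tested in these cells 507 did, so 0 of 15 does not set this list apart. The part of the type mix was not tested. Axon injury genes split 7 and 7 (median -0.06), and Sdc1, a heparan sulphate proteoglycan, had the smallest p among the higher ones without passing (0.77 ± 0.18, adjusted p = 0.643). Immediate early genes split 9 and 13 (median -0.05), with Nr4a1 at 0.39 ± 0.22 and Dusp1 at -0.19 ± 0.13. Sodium and TRP channels split 12 and 7 (median 0.07), with Scn1a at -0.44 ± 0.23. The 4 globins were all higher (median 2.31), and with the 51 cells rich in globin left out their summed UMIs over all cells were 200, 136, 147 and 108 against 122 and 216, so that the groups overlapped. These lists were chosen with results of the same data known, so their counts are a description.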

How the data were processed

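The deposited table holds UMI counts of 27998 genes in 21685 cells, made by the authors; per the submitters' processing notes the tools were bcl2fastq 2.17.1.14, Cell Ranger 2.0.1, Seurat 2.3.0 and limma 3.32.10 with build mm10. How cells were chosen for deposit is not stated. The mouse of each cell was read from its label. Counts of all deposited cells were summed per mouse, each mouse being 1 replicate.

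Neuron types were gated by marker genes, each scored against its 90th percentile among positive cells. A cell needed a score of 0.3, 2 marker UMIs and 2 times the next score; 4670 cells scoring in 2 gates were left out, and no doublet caller was run. Types needed 20 cells in every mouse, gating genes were left out of a type's test, and the gate thresholds were set after cell counts and marker levels were seen.

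edgeR 4.0.16 (TMM, filterByExpr, quasi-likelihood F test, Benjamini-Hochberg within each set, threshold 0.05) was fitted with 1 mean per genotype; CPM values are TMM-scaled and SE is the fold change over the root of F. Alternatives were DESeq2 1.42.0, RLE scaling in edgeR, testing without the low-count filter, limma-voom (limma 3.58.1), 1 mean per diet group, sex as a term, each diet alone, thinned sums, filtered cells, a stricter gate and each mouse left out. The interaction of type and genotype used mouse as a block. On simulated counts with 50 genes changed at each fold, edgeR over all cells recovered 19 at 1.5-fold and 45 at 2-fold. There 12 unchanged genes were called. Every simulated gene had the same dispersion, unlike the data, so these rates do not say how many real changes of that size were missed.

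Named genes were, over all cells, those past the threshold and otherwise the 20 with the smallest p; in each type up to 6 called genes per direction or else the 3 with the smallest p; and of each list the called members and the smallest p per direction. Results for some genes that this rule names are left out of the text, while counts include them. Of the gene symbols 26604 matched GENCODE vM21 (GRCm38) once. Intervals and floors cover counting error only. The comparison, members, lists and markers were chosen with earlier results of these data known. Nothing in the labels says that the mice were littermates, and 2 wild type mice limit every comparison.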

Additional observations from a re-analysis of the deposited data

Results flagged for a closer look

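Car8 in mouse 670, on the supplemented diet, stood apart from the other 3 mice labelled Ttpa-/- in each set where it was followed: 17.3 CPM over all cells, 96.9 CPM in Mrgpra3-gated, 43.6 CPM in NP3-like and 54.5 CPM in PEP-like cells. The next highest values among those mice were 1.67, 21.3, 2.67 and 2.19 CPM. These sets share cells, so the 4 values are not independent.

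Mouse 671 was far above the other mice labelled Ttpa-/- in TH-like cells for Abhd2 (465 CPM) and Tacc1 (111 CPM). Among the 4 mice labelled Ttpa-/-, mouse 657 was highest for Wdfy1 in Mrgpra3-gated cells (45.2 CPM, next 36.3 CPM). It was also highest for 1700086L19Rik over all cells (24.1 CPM, next 21.8 CPM). These gaps were wide only beside the small spread of the rest. Of the same 4 mice, mouse 654 was highest for Bhlhe41 over all cells (325 CPM). It also had the lowest share of myelinated PEP-like cells (2.20% of gated cells). In all, 10 of 76 groups of 4 mice showed such a value. Chance alone marks about 1 group in 20 where values are normal. These groups share mice and cells, so their number is no test of an excess.

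The genotype difference of Necab1 was larger in NP3-like cells than the mean of the other neuron types, by 2.53 on the log2 scale (edgeR's quasi-likelihood test, adjusted p = 5.06e-04). It was 1.82 without mouse 698, with an adjusted p of 0.491.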

How the results depend on the processing

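No paired analysis was possible because the groups share no replicate number. The count of 0 genes over all cells became 47 without the low-count filter, 17 with DESeq2, 0 to 2 with 1 mouse left out and 2 (Wdfy1 and Car8) with mice 654 and 670 both left out, an alternative chosen after seeing the data; it was 0 in the other alternatives run. The 23 calls within neuron types became 137 without the low-count filter, 15 against the deficient diet alone, 16 to 61 with 1 mouse left out and 40 without mice 654 and 670, and stayed within 1.5 times in the others run. The 1 call of type by genotype became 2 with RLE size factors and 1 to 8 with 1 mouse left out. With 1 mouse left out, the difference in share ran from -0.156 to 0.341 percentage points for Mrgpra3-gated, -6.45 to 2.94 for NF-like, -0.882 to 1.65 for NP3-like and -0.82 to 0.27 for myelinated PEP-like cells, and kept its sign for NP1-like (6.26 to 8.33), PEP-like (-10.1 to -2.82) and TH-like cells (-3.35 to -0.815). Over 1244 alternative values of 66 named results, 1102 kept direction and side of the threshold and 97 lost the call. Another 43 gained one and 2 reversed. Only the 23 results called within neuron types could lose a call. The 1102 include results that were not called and stayed so, and therefore do not measure how stable the calls were. The 2 that reversed were Elovl5 over all cells (0.00356 on the log2 scale without mice 654 and 670) and Cyp51 over all cells. Cyp51 was at 0.0961 without mouse 698, in a range of -0.199 to 0.0961 with 1 mouse left out. RLE size factors moved the median of all genes by less than 0.01 in each set. The causes were not tested. Low counts limit how exactly Car8 is known in PEP-like cells of mice 654, 657 and 671 (1, 0 and 3 UMIs). Mouse 670 held 56 Car8 UMIs in the smallest PEP-like sum (1002181 UMIs). Low counts also limit Necab1 in wild type NP3-like cells (2 and 7 UMIs).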
